A study of Homo sapiens with 3 samples.

Results

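The genes described here are 10 regulators of the G1 phase of the cell cycle: the D-type cyclins CCND1, CCND2 and CCND3, the E-type cyclins CCNE1 and CCNE2, the cyclin-dependent kinases CDK2, CDK4 and CDK6, the kinase inhibitor CDKN1B (p27) and the transcription factor E2F1. They were taken by gene symbol from a table of 30923 genes, and all 10 were found. The RNA came from QBC-939, a cell line of human cholangiocarcinoma, a cancer of the bile ducts, which the labels give as wild type. It was sequenced as 1 library from cells overexpressing miR-182-5p, 1 from cells overexpressing miR-183-5p and 1 from cells overexpressing NC, a control whose nature the labels do not spell out. The titles of both microRNA samples end in "mim". The only stated difference between the groups is the overexpressed RNA, and neither its dose nor the time of harvest is given in the sources used here. With 1 library per group no test between conditions is possible: every ratio describes these 3 libraries, and its 95% interval covers counting error only.

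Passage through G1 depends on kinases that are active only when bound to a cyclin. D-type cyclins join CDK4 or CDK6 and E-type cyclins join CDK2, and these complexes phosphorylate the retinoblastoma protein and its relatives. Phosphorylation frees E2F factors, which switch on cyclin E, E2F1 itself and the genes of DNA synthesis, while p27 binds and restrains the cyclin E and CDK2 complex. CCND1 and CDK4 are well known for their role in the growth of epithelial cancers.

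Both microRNAs are encoded close together on chromosome 7, and they differ within the seed, the bases at positions 2 to 8 with which a microRNA pairs with messenger RNA. Their mature sequences, from RefSeq (GRCh38.p14), are shown with the seed in capitals because the target sites given further on were searched with it.
miR-182-5p, chr7:129770447-129770470, minus strand: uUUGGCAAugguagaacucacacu
miR-183-5p, chr7:129774967-129774988, minus strand: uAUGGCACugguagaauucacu

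Gene counts summed to between 61709874 and 67427313 per library. Mitochondrially encoded genes took 16.7% of counts with miR-182-5p, 16.1% with miR-183-5p and 13.5% with NC. All 6 bile duct epithelium markers looked up reached 1 FPKM (fragments scaled to transcript length and library size) in every library, but KRT7 only just did, with 1.29 FPKM with miR-182-5p, 1.46 FPKM with miR-183-5p and 1.03 FPKM with NC. Of the fibroblast, immune and endothelial markers measured, COL1A1, with at most 1.81 FPKM, and CD68, with at most 1.47 FPKM, were the only ones to reach it in any library. COL1A2, COL3A1, DCN, CD3E and CDH5 were looked up too but had no entry among the genes used here, so they have no value. Across all genes the ratios were lower for more abundant genes. In the miR-182-5p sample the median ratio to NC was 1.02 for 8619 genes with 1 to 10 FPKM in NC, 0.905 for 2654 genes with 10 to 30 FPKM and 0.850 for 831 genes with 30 to 100 FPKM. For 238 genes with at least 100 FPKM it was 0.817. In the miR-183-5p sample the same classes had medians of 0.988, 0.9502, 0.927 and 0.916. The part of this slope in the results for single genes was not tested.

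Of the 10 genes, 9 were expressed at a readable level and kept the same order in all 3 libraries. CDK4 was the most abundant by length-scaled level, at 38.2 FPKM with miR-182-5p, 47.7 FPKM with miR-183-5p and 54.2 FPKM with NC. E2F1 followed at 23.9 to 24.7 FPKM, then CDKN1B at 19.7 to 21.7 FPKM, CCND1 at 18.1 to 19.8 FPKM, CDK2 at 16.8 to 18.2 FPKM and CDK6 at 10.0 to 11.03 FPKM. The lower places were held by CCNE1 at 6.80 to 9.24 FPKM, CCND3 at 6.03 to 7.27 FPKM, CCNE2 at 0.875 to 1.11 FPKM and CCND2 at or near 0. Neighbours whose counting intervals met were CCND1 and CDK2 with miR-182-5p, and CDKN1B and CCND1 as well as CCNE1 and CCND3 with miR-183-5p, so the order of these neighbours was not resolved there. CDK4 stood above 95.9% of the genes with at least 1 FPKM with NC, and above 94.6% of them with miR-182-5p.

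**Figure D1:**
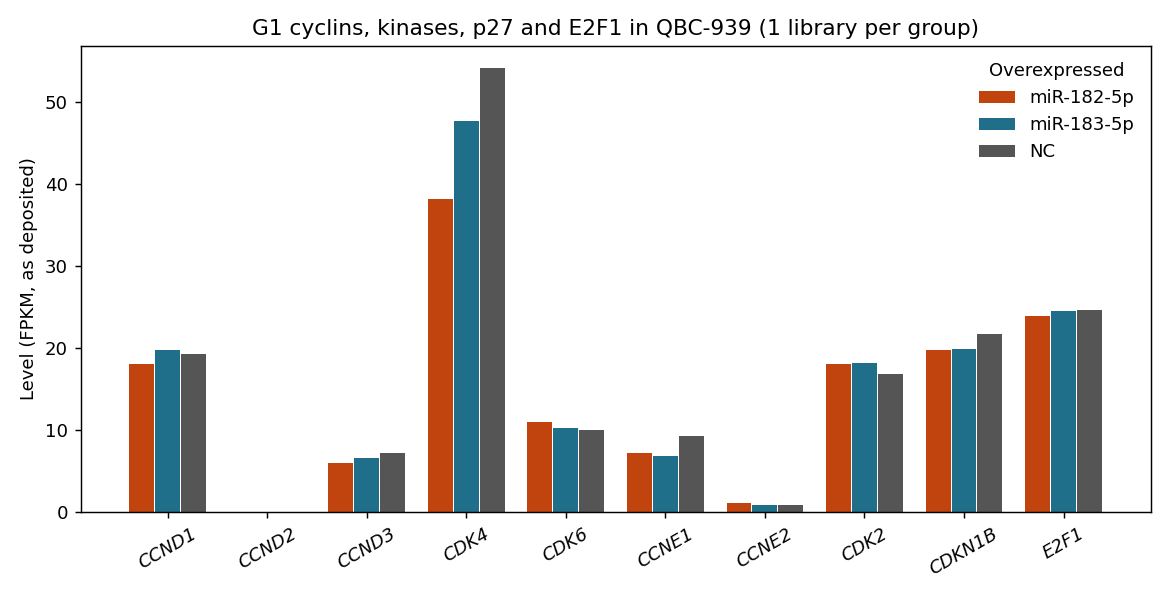
Level of each gene in FPKM, as deposited, in each library: miR-182-5p, miR-183-5p, NC (1 library per group, so there are no error bars). CDK4 is the highest bar in each library and differs most between them, from 38.2 to 54.2 FPKM, whereas CCND2 has no visible bar.

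CCNE1 was called lower with both microRNAs, CDK4 and CCND3 were called lower with miR-182-5p, and CCND1, CDK2, CDK6, CDKN1B and E2F1 were called with neither, by the rule of size given next. Ratios of single genes are ratios of CPM (counts scaled to the total of the library). A gene was called at 1.2-fold or more in either direction with an interval that excludes 1, among genes with at least 1 FPKM in at least 1 of the libraries compared. In the miR-182-5p sample against NC, 3 of the 9 genes that passed this filter were called lower (CDK4, CCNE1 and CCND3), against 19.6% of 13267 genes tested. CCNE2 was called higher, against 22.6% of genes tested, but it passed the filter only through the miR-182-5p sample, where it was high. In the miR-183-5p sample against NC, CCNE1 was called lower, against 10.1% of 12926 genes tested, and none of the 8 genes that passed was called higher, against 9.92%. The genes are too few for these counts to be read as departing from the shares of all genes. The median ratio of the genes that passed was 0.925 with miR-182-5p, where that of all genes tested, of any level, was 0.993. With miR-183-5p it was 0.943, where that of all genes tested was 0.977. E2F1, CDKN1B, CCND1, CDK2 and CDK6 fall among genes of 10 to 30 FPKM in NC. The medians of that class were 0.905 with miR-182-5p and 0.9502 with miR-183-5p. They were 0.850 and 0.927 for the class of CDK4, and 1.02 and 0.988 for that of CCNE1 and CCND3. The median of these genes is thus not read as a shift. At 1.5-fold none of these genes was called, against 9.45% of genes higher and 3.11% lower for miR-182-5p and 3.47% higher and 2.23% lower for miR-183-5p; at 2-fold none was either, against 3.47% and 0.95% for miR-182-5p and 1.56% and 0.928% for miR-183-5p. Both comparisons use the same NC library, so their values are not independent. Fewer cells in a phase of the cycle and less RNA per cell cannot be told apart in such bulk samples.

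**Figure D2:**
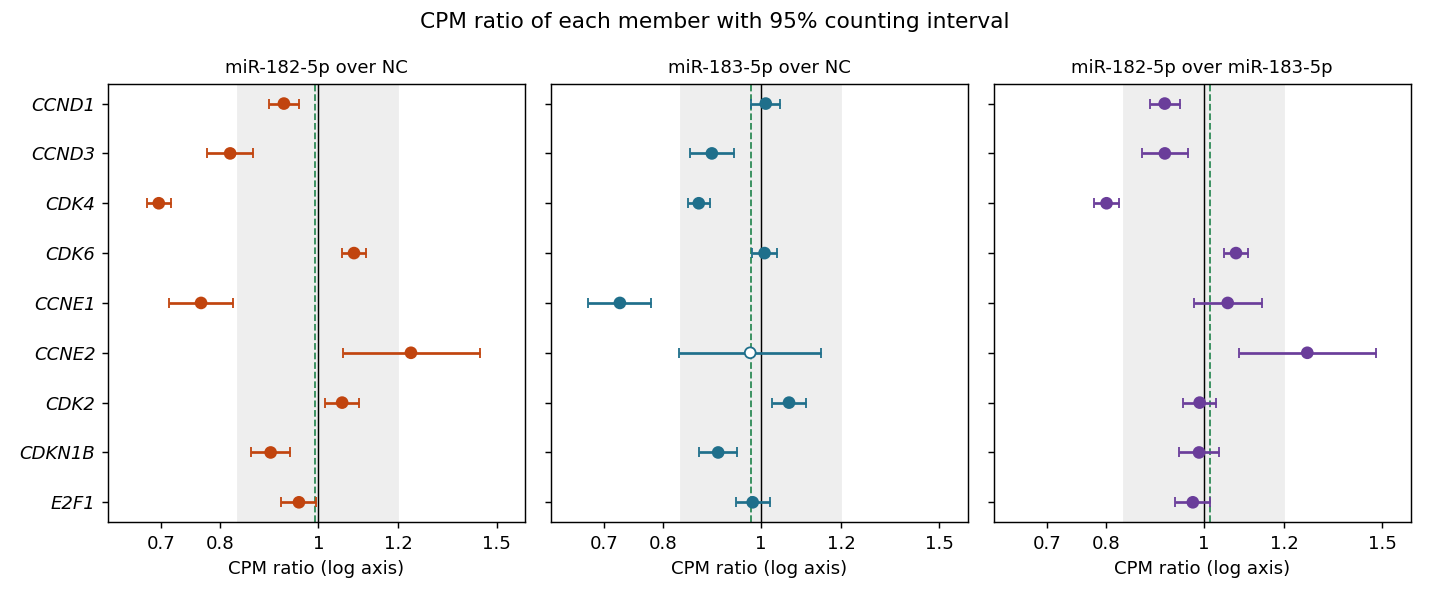
CPM ratio of each gene with its 95% counting interval, on a log axis, for the miR-182-5p sample over NC, the miR-183-5p sample over NC and the miR-182-5p sample over the miR-183-5p sample. The grey band spans less than 1.2-fold, the dashed line is the median of all genes tested, and the open circle marks CCNE2 where it did not pass the filter. CDK4 (0.696) and CCNE1 (0.766) lie farthest left in the miR-182-5p panel, and CCNE1 (0.725) does in the miR-183-5p panel.

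The D-type cyclins carry growth factor signals to CDK4 and CDK6. CCND1 (ENSG00000110092, chr11:69641156-69654474 in GRCh38, the build of all gene positions given) had 6294 counts with miR-182-5p, 7516 with miR-183-5p and 7115 with NC. Its CPM ratio to NC was 0.925 (0.894 to 0.957) with miR-182-5p and 1.01 (0.978 to 1.04) with miR-183-5p, neither of which was called. CCND3 (ENSG00000112576, chr6:41934934-42050357), which pairs with the same kinases, had 2549 counts with miR-182-5p, 3043 with miR-183-5p and 3256 with NC. It was called lower with miR-182-5p at 0.818 of NC (0.777 to 0.862), just past the threshold, and was at 0.894 (0.851 to 0.940) with miR-183-5p without being called. The CCND3 call was lost when library totals left out mitochondrially encoded genes (log2 ratio -0.23), and with a pseudocount of 1 on FPKM. CCND2, the third D-type cyclin, had 0 counts with miR-182-5p, 4 with miR-183-5p and 0 with NC. A count of 0 allows up to 0.0486 CPM with miR-182-5p and 0.0465 CPM with NC, so no difference in CCND2 was detectable at this depth. The D-type cyclins together came to 24.1 FPKM with miR-182-5p, 26.4 FPKM with miR-183-5p and 26.5 FPKM with NC, and CCND1 made up 74.97%, 74.95% and 72.6% of that sum. CCND1 therefore supplied most D-type cyclin RNA in each library. The count ratio of CCND1 to CCND3 was 1.13 times that of NC with miR-182-5p (1.06 to 1.203) and 1.13 times with miR-183-5p (1.06 to 1.1997).

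CDK4 and CDK6 are the kinases of the D-type cyclins, and they differed from each other in both microRNA libraries. CDK4 (ENSG00000135446, chr12:57747727-57756013) had 8651 counts with miR-182-5p, 11792 with miR-183-5p and 12998 with NC. The lowest value was that of the miR-182-5p sample, and the miR-183-5p sample lay between it and NC. The CPM ratio to NC was 0.696 (0.677 to 0.715) with miR-182-5p, with 4.55% of genes tested lower still, and 0.868 (0.847 to 0.890) with miR-183-5p, which was not called. Against the 831 genes of like level, whose median ratios were 0.850 and 0.927, CDK4 was lower in both libraries. CDK6 (ENSG00000105810, chr7:92604921-92836573) had 9869 counts with miR-182-5p, 10022 with miR-183-5p and 9513 with NC. It was at 1.08 times NC (1.05 to 1.12) with miR-182-5p and at 1.01 (0.980 to 1.04) with miR-183-5p. The count ratio of CDK4 to CDK6, which does not depend on how the libraries are scaled, was 0.642 times that of NC with miR-182-5p (0.617 to 0.667) and 0.861 times with miR-183-5p (0.829 to 0.894). In FPKM, CDK4 was 3.47 times as abundant as CDK6 with miR-182-5p, 4.65 times with miR-183-5p and 5.41 times with NC. The 2 kinases together came to 49.2 FPKM with miR-182-5p, 58.0 FPKM with miR-183-5p and 64.2 FPKM with NC.

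The E-type cyclins drive CDK2 at the entry into S phase. CCNE1 (ENSG00000105173, chr19:29811991-29824312) had 1294 counts with miR-182-5p, 1339 with miR-183-5p and 1766 with NC. Both microRNA libraries lay below NC, at 0.766 (0.712 to 0.823) with miR-182-5p and at 0.725 (0.675 to 0.779) with miR-183-5p. Of the genes tested, 10.6% had a lower ratio than CCNE1 with miR-182-5p and 3.71% with miR-183-5p. CCNE1 was the only gene of the 10 called in both microRNA libraries. Genes of 1 to 10 FPKM in NC had median ratios of 1.02 and 0.988. CCNE1, at 9.24 FPKM in NC, was near the top of that class. Genes of 10 to 30 FPKM had medians of 0.905 and 0.9502. CCNE2 (ENSG00000175305) had 359 counts with miR-182-5p, 310 with miR-183-5p and 304 with NC. Its ratio to NC was 1.23 (1.06 to 1.44) with miR-182-5p and 0.976 (0.830 to 1.15) with miR-183-5p. The count ratio of CCNE1 to CCNE2 was 0.620 times that of NC with miR-182-5p (0.522 to 0.737) and 0.744 times with miR-183-5p (0.623 to 0.888). Both values lean on CCNE2, which passed the filter against NC only through the miR-182-5p sample and did not pass it with miR-183-5p. In FPKM, CCNE1 made up 86.6% of E-type cyclin RNA with miR-182-5p, 88.6% with miR-183-5p and 91.3% with NC. The sum of both was 8.29 FPKM with miR-182-5p, 7.68 FPKM with miR-183-5p and 10.1 FPKM with NC.

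**Figure D3:**
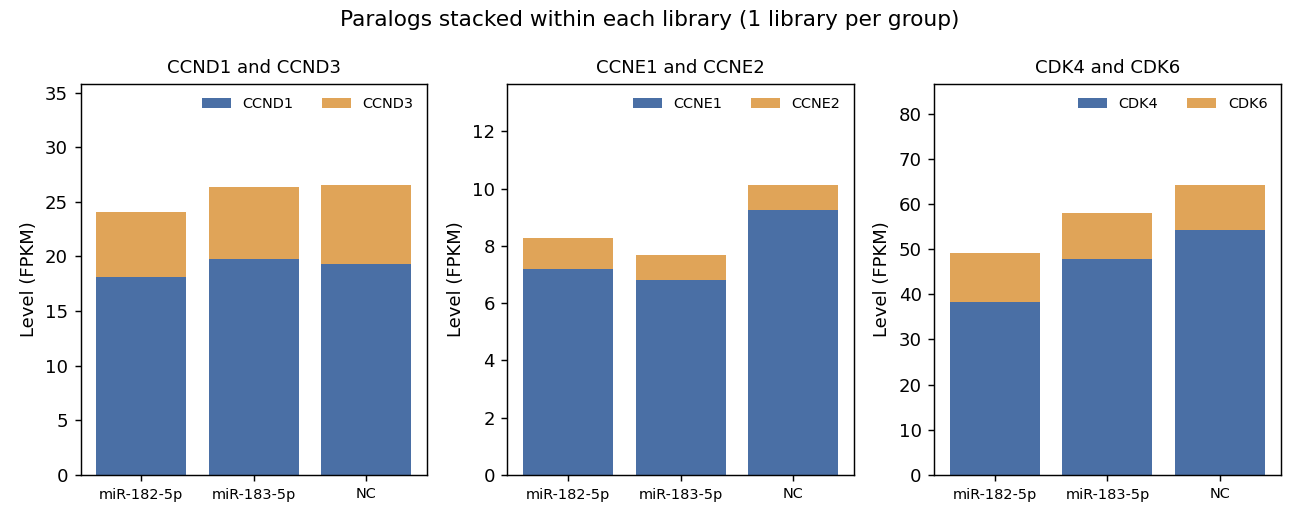
Levels in FPKM of CCND1 and CCND3, of CCNE1 and CCNE2 and of CDK4 and CDK6, stacked within each library (miR-182-5p, miR-183-5p, NC; 1 library per group; each panel has its own scale). The CDK4 part is 38.2 FPKM with miR-182-5p, 47.7 FPKM with miR-183-5p and 54.2 FPKM with NC, while the CDK6 part stays between 10.0 and 11.03 FPKM.

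CDK2, the partner of the E-type cyclins (ENSG00000123374, chr12:55966781-55972789), had 5127 counts with miR-182-5p, 5655 with miR-183-5p and 5077 with NC. Its ratio to NC was 1.06 (1.02 to 1.10) with miR-182-5p and 1.07 (1.03 to 1.11) with miR-183-5p; both intervals exclude 1, but the ratios fall short of the fold called. CDKN1B, the gene of the inhibitor p27 (ENSG00000111276, chr12:12715058-12722369), had 3702 counts with miR-182-5p, 4089 with miR-183-5p and 4313 with NC. It was at 0.897 of NC (0.859 to 0.938) with miR-182-5p and at 0.907 (0.869 to 0.947) with miR-183-5p, not called in either. E2F1 (ENSG00000101412, chr20:33675477-33686385) had 4707 counts with miR-182-5p, 5273 with miR-183-5p and 5142 with NC. At 0.957 of NC (0.920 to 0.996) and 0.981 (0.944 to 1.02), E2F1 differed least of the genes below NC in both libraries.

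Set directly against the miR-183-5p sample, the miR-182-5p sample had less CDK4 RNA and more CCNE2 RNA. CDK4 was at 0.802 of the miR-183-5p level (0.780 to 0.824) and was the 1 gene called lower of the 9 that passed the filter, against 8.58% of 13308 genes tested. CCNE2 was at 1.27 (1.08 to 1.48) and was the 1 gene called higher, against 16.5% of genes tested, and here too it passed the filter through the miR-182-5p sample alone. CCNE1 was at 1.06 with an interval that includes 1 (0.977 to 1.14). CCND1 and CCND3 were both at 0.915 and not called. None of the genes was called at 1.5-fold, against 5.2% of genes higher and 1.89% lower, or at 2-fold, against 1.86% higher and 0.894% lower.

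Several of these genes share exon bases with a neighbour on the opposite strand in GENCODE release 29, and the sources used here do not say whether the counting used strand. The exons of TSPAN31 cover 43.2% of the exon bases of CDK4. TSPAN31 had 669 counts with miR-182-5p, 606 with miR-183-5p and 623 with NC. The part of this overlap in the CDK4 counts was not tested. The exons of INTS8 cover 37.0% of those of CCNE2, and INTS8 had more reads than CCNE2, with 2472 counts with miR-182-5p, 2698 with miR-183-5p and 2544 with NC. The small difference in CCNE2 therefore rests on a gene whose reads are not assigned with certainty. LTO1 covers 10.3% of the exon bases of CCND1. CCND2, CCND3, CCNE1, CDKN1B and E2F1 share no exon base with another gene of the table.

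Target sites were looked for because a microRNA usually lowers RNAs that pair with its seed in the 3' untranslated region (UTR). The annotated 3' UTR of the transcript with the longest coding sequence was searched for each gene (GENCODE release 29, GRCh38). The UTRs of other transcripts were not searched. The window was 261 bases for CDKN1B and 496 for CDK2, against a median of 890 over all genes searched. For miR-182-5p the 7 nucleotides searched were TTGCCAA, and of the 10 genes CDK6 alone held them in the window searched. The site of CDK6 starts at base 2796 of a 3' UTR of 10219 bases (chr7:92612338-92612344, minus strand) and is shown with the pairing bases in capitals.
CDK6: ttcaaacatctTTGCCAAaagctaagcag
CDK6, the gene with this site, was at 1.08 times NC with miR-182-5p. A site of this kind is common in so long a UTR, where 61.8% of 178 genes of similar length hold it, against 12.4% of all 15659 genes searched. CDK4, CCNE1 and CCND3, which were lower with miR-182-5p, held none of these 7-nucleotide sites in the window searched. The 6-nucleotide core of the site, TGCCAA, occurred 1 time in CCND3, where 27.7% of genes with a 3' UTR of similar length held as many. It also occurred in CCND1 (1), CCND2 (2) and CDK6 (4), and in no other of the 10 genes. For miR-183-5p the 7 nucleotides were GTGCCAT, held by 9.75% of genes searched and by none of the 10 in the windows searched.

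The shorter core of the miR-183-5p site, the 6 nucleotides TGCCAT, occurred 4 times in the 798 bases of the CDK4 3' UTR. Of 1928 genes with a 3' UTR of similar length, 0.0519% held as many, a share that includes CDK4 itself. These sites were singled out after the counts of sites were seen, and 3 of them are shown with the 6 nucleotides in capitals.
CDK4 at base 14 after the stop codon, chr12:57748506-57748511, minus strand: aatggagtggcTGCCATggaaggaagaa
CDK4 at base 35 after the stop codon, chr12:57748485-57748490, minus strand: ggaagaaaagcTGCCATttcccttctgg
CDK4 at base 328 after the stop codon, chr12:57748192-57748197, minus strand: ctgtttggcttTGCCATtgtgcgatttg
CDK4 RNA was at 0.868 of NC with miR-183-5p and at 0.696 with miR-182-5p, whose 6-nucleotide core this 3' UTR does not hold. CCNE2 held 3 of these hexamers in its 3' UTR, where 3.24% of genes with one of similar length held as many, and was at 0.976 of NC with miR-183-5p. CCNE1, which was called lower with miR-183-5p, held none, and CDK4 was not called there. A match is a description of the sequence and shows no binding.

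The promoter of CDK4 is shown because CDK4 was, of the 10 genes, the farthest below NC with miR-182-5p, with the E-box CACGTG, a hexamer bound by MYC and other factors, in capitals (RefSeq, GRCh38.p14, chr12:57752261-57752560, minus strand, 250 bases before to 50 after the start).
CDK4: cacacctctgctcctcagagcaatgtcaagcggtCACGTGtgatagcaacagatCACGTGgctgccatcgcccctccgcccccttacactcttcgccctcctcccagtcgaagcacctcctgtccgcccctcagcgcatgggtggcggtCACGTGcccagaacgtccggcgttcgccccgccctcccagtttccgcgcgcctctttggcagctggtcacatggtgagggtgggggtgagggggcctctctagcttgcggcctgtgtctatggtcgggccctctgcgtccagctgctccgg
The hexamer, which reads the same on both strands, occurred 3 times, and 0.0940% of 35116 promoters of the same length hold as many, while 7.26% hold at least 1. Among the 6 genes of the 10 with a promoter entry, CDK6 held 1 in 1 of its promoters and CCND3, CDKN1B, CCNE1 and E2F1 held none. MYC RNA, looked up after its values were known, had 12622 counts with miR-182-5p, 13993 with miR-183-5p and 15952 with NC. Its CPM ratio to NC was 0.827 (0.808 to 0.847) with miR-182-5p and 0.839 (0.820 to 0.859) with miR-183-5p. MYC, at 44.9 FPKM in NC, falls among genes of 30 to 100 FPKM, whose median ratios were 0.850 and 0.927. In the miR-182-5p sample over the miR-183-5p sample MYC was at 0.986 (0.962 to 1.01), where CDK4 was at 0.802. The part of MYC in the CDK4 values was not tested.

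E2F1 is an E2F-regulated gene itself, and its promoter is shown with E2F octamers in capitals (TTTCCCGC, TTTCGCGC, TTTGGCGC or TTTGCCGC on either strand; RefSeq, GRCh38.p14, chr20:33686336-33686635, minus strand).
E2F1: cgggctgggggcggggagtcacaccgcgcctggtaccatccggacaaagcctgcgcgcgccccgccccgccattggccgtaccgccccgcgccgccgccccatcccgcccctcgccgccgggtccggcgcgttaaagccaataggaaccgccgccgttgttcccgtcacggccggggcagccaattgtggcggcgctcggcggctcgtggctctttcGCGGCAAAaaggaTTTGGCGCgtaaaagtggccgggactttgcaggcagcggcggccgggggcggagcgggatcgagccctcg
E2F1 held 2 such octamers side by side, without overlap, and 0.145% of promoters of the same length hold as many, while 3.31% hold at least 1. The other promoter entries of the 10 genes held none.

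With miR-182-5p, 12 of 21 measured genes that E2F factors switch on for S phase were called lower and 0 higher. The shares of all genes tested, of any level, were 19.6% and 22.6%, and shares among genes of like level were not computed. The median ratio of the 21 was 0.827, and the list was chosen with earlier results of these data known. The replication clamp PCNA was lowest at 0.709 (0.692 to 0.726) and the polymerase subunit POLE highest at 1.16 (1.13 to 1.19). Across all genes, those of 10 to 30 FPKM and 30 to 100 FPKM in NC had median ratios of 0.905 and 0.850 in the same library. PCNA, at 157 FPKM in NC, falls among genes of at least 100 FPKM. Their median ratio was 0.817 with miR-182-5p and 0.916 with miR-183-5p. In the miR-183-5p sample 0 of the 21 were called in either direction, against 9.92% of all genes tested higher and 10.1% lower, and the median ratio was 0.939, from PCNA at 0.844 (0.826 to 0.863) to POLE at 1.08 (1.06 to 1.11). Between the microRNA libraries 4 of them were called lower with miR-182-5p, against 8.58% of all genes tested, at a median of 0.865.

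The medians of the other 7 lists lay between 0.835 and 0.937 with miR-182-5p and between 0.891 and 0.985 with miR-183-5p. Their counts stand against the shares of all genes tested, 22.6% called higher and 19.6% lower with miR-182-5p and 9.92% higher and 10.1% lower with miR-183-5p, and each list is too short for its count to be read as departing from them. Of 12 pocket proteins and E2F partners, the retinoblastoma relative RBL2 was called higher at 1.23 (1.19 to 1.27) with miR-182-5p and TFDP1, the partner with which E2F factors bind DNA, was called lower at 0.795 (0.770 to 0.821). None of the 12 was called with miR-183-5p, where the extremes were RBL2 at 1.12 and E2F3 at 0.894. The group medians were 0.937 and 0.954. Of the 6 other kinase inhibitors measured, CDKN2A, whose p16 product blocks CDK4 and CDK6, was the lowest with miR-182-5p at 0.784 (0.747 to 0.822), and CDKN1A was the highest at 1.11, and at 1.02 also the highest with miR-183-5p. CDKN2D, of the same inhibitor family as p16, was called lower in both microRNA libraries, at 0.809 (0.675 to 0.970) with miR-182-5p and 0.734 (0.611 to 0.880) with miR-183-5p. The group medians were 0.887 and 0.891.

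Of 8 genes that set CDK phosphorylation, CDC25A, a phosphatase that activates CDK2, was the lowest with miR-182-5p at 0.722 (0.675 to 0.771), and the inhibitory kinase WEE1 was the highest at 1.203 (1.15 to 1.254). None of the 8 was called with miR-183-5p, where CDC25A was at 0.835 and WEE1 at 1.15. The group medians were 0.9000 and 0.985. A list of 14 genes held ubiquitin ligase parts that act on cyclins and p27, together with CKS2, a small partner of cyclin-dependent kinases. With miR-182-5p 4 were called lower, CKS2 among them, against 19.6% of all genes tested, at a group median of 0.869. With miR-183-5p CKS2 was the only 1 called lower, against 10.1%, at a group median of 0.927, so no ligase part was called there. CKS2, at 140 FPKM in NC, was at 0.647 (0.622 to 0.673) with miR-182-5p and 0.792 (0.764 to 0.821) with miR-183-5p. The highest was FBXW7, the receptor that marks cyclin E for destruction, at 1.19 and 1.12, not called.

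Of 7 mitotic cyclins and kinases, 3 were called lower with miR-182-5p, against 19.6% of all genes tested, at a median of 0.835, from CDK1 at 0.808 (0.780 to 0.837) to CCNF at 1.02, and none with miR-183-5p, where PLK1 was lowest at 0.901 and CCNF highest at 1.06. In the DREAM and MuvB group, which represses or activates cell cycle genes by phase, the subunit LIN52 was called lower in both, at 0.674 (0.588 to 0.772) with miR-182-5p and 0.785 (0.691 to 0.891) with miR-183-5p, while LIN37 was the highest, at 1.32 and 1.08. Of these 6 genes, 1 was called higher and 2 lower with miR-182-5p, against 22.6% and 19.6% of all genes tested, at a median of 0.857. With miR-183-5p 0 were called higher and 1 lower, against 9.92% and 10.1%, at a median of 0.903. Of 6 other cyclins and kinases, none was called with miR-182-5p, from CCNI at 0.847 to CCNG2 at 1.19 around a median of 0.937, and CCNG2 was called lower at 0.812 (0.749 to 0.880) with miR-183-5p, where CDK8 was highest at 1.01 and the median was 0.902. Over all 80 genes tested from these 8 lists, 3 were called higher and 25 lower with miR-182-5p, against 22.6% and 19.6% of all genes tested. With miR-183-5p 0 were called higher and 5 lower, against 9.92% and 10.1%. Of the 25, 12 were the S phase genes given above. All these shares are of genes of any level, and shares among genes of like level were not computed.

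**Figure D4:**
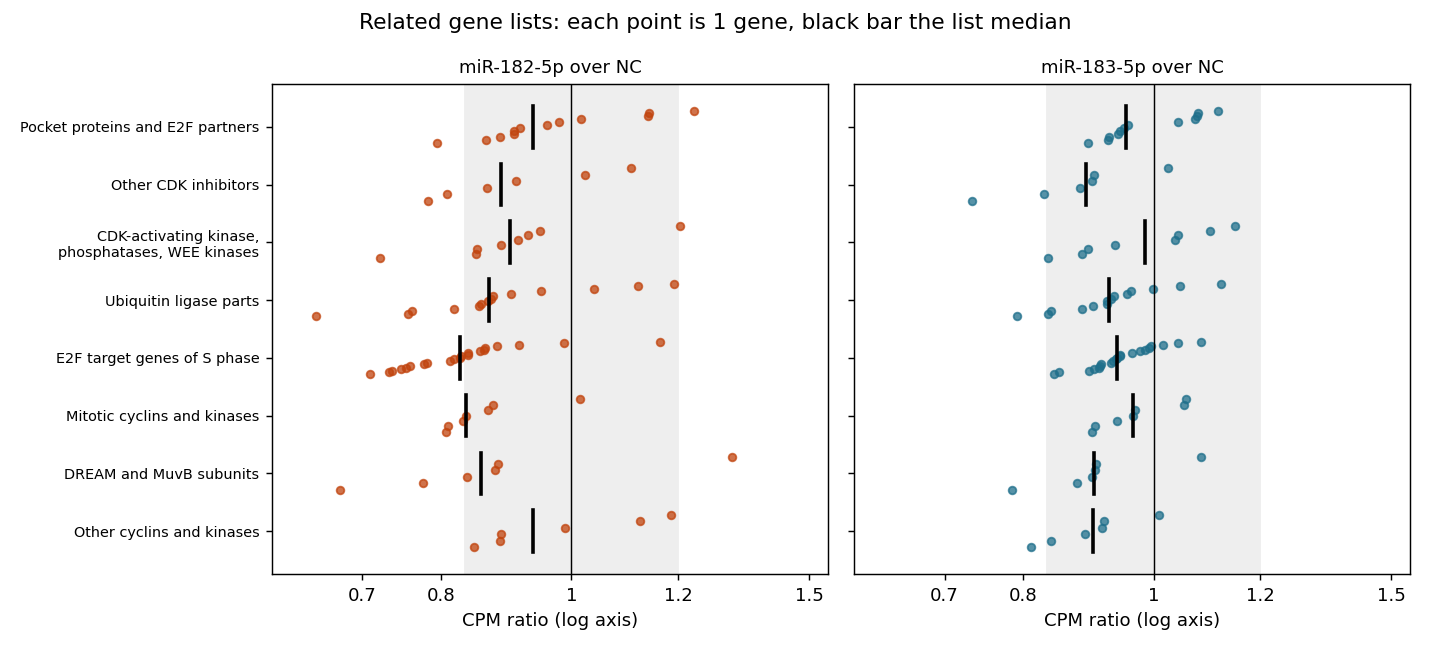
CPM ratio to NC, on a log axis, of each gene of the 8 related lists with miR-182-5p and with miR-183-5p; each point is 1 gene, the black bar the list median and the grey band less than 1.2-fold. The S phase genes have a median of 0.827 in the miR-182-5p panel and 0.939 in the miR-183-5p panel, with PCNA the lowest point of that row in both.

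Genes with the pattern most like that of 4 of these regulators were taken as the 2 with the smallest distance over both log2 ratios to NC, among genes within 2-fold of the same NC level. With 3 libraries a pattern has only 2 differences, so near matches are common. For CDK4 they were the ribosomal protein pseudogene RPL3P4, whose reads cannot be told from those of its parent gene with certainty, and the peroxiredoxin PRDX3, at 0.698 with miR-182-5p and 0.859 with miR-183-5p. For CCND1 they were UBXN1 and ATP2C1, for CDKN1B they were TCF3 and TMEM238, and for E2F1 they were CDC37 and TMEM60, each from 994 to 3075 candidates.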

How the data were processed

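Total RNA of QBC-939 cells was extracted with Trizol and sequenced, per the labels' protocols. The submitters' processing notes name cutadapt 1.9 and FastQC, and give the build as GRCm38, a mouse assembly. The gene identifiers are human, and 99.8% of those found in GENCODE release 29 lie over their own GRCh38 gene. The sources used here do not give aligner, counter, annotation or strand use. Gene counts are whole numbers as deposited, and the FPKM values were computed by the authors and deposited beside them, per the file headers.

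Counts were scaled to the library total (CPM). Ratios carry exact Clopper-Pearson 95% intervals conditional on the sum of both counts (scipy 1.17.1), and the limit for a count of 0 is 3 counts of the library total. Intervals cover counting error only, since reads are not independent molecules. Calls need 1.2-fold, an interval that excludes 1 and at least 1 FPKM in 1 of the libraries. Levels of different genes are compared as FPKM. The code that makes the calls was run on simulated counts with known ratios. Those counts held counting error only, so the run does not bear on variation between libraries.

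The members and lists were chosen with earlier results of these data known. All 10 members are named. From each related list the highest, the lowest and genes called in both microRNA libraries are named, besides MYC. Motif and seed searches used RefSeq promoters and microRNAs and GENCODE 3' UTRs. The settings tried were other folds, TMM (edgeR 4.0.16), median-of-ratios and non-mitochondrial scaling, FPKM and TPM, other filters and genes without exon overlap. A centring on the median gene was added after the data were seen. The sequence of 1 seed site is not reported here.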

Additional observations from a re-analysis of the deposited data

How the results depend on the processing

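Depth does not limit these ratios except for CCNE2, with 304 to 359 counts, and CCND2, with at most 4. The absence of replicates does: leaving out a library leaves no comparison. No paired analysis was possible because each group has 1 library and the labels carry no replicate numbers. Of 232 values of single genes under 9 other settings, 216 stayed inside their counting interval and 16 moved outside it, by at most 0.17 on the log2 scale over all of them, and none of the called ones changed direction.

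Calls depend on the fold. At 1.5-fold and at 2-fold the members called were 0 in each direction in all 3 comparisons. For miR-182-5p over NC the median log2 ratio of the members was -0.11, and it was -0.057 with library totals that leave out mitochondrially encoded genes, -0.18 with FPKM rescaled to TPM, and -0.22 over the 4 measured members with no exon overlap. For miR-183-5p over NC the median was -0.08, and -0.15 over the 4 measured members with no exon overlap. The call of CCNE2 as higher was lost, leaving 0 higher, with a pseudocount of 1 on FPKM and after rescaling to TPM. This held both for miR-182-5p over NC and for miR-182-5p over miR-183-5p. An FPKM of at least 5 and the removal of overlapping genes also left 0 higher. Both settings take out CCNE2 itself, so they say nothing about its call. The removal of overlapping genes takes out CDK4 too. The 0 members then lower for miR-182-5p over miR-183-5p thus say nothing about the call of CDK4.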
